A study of Homo sapiens with 6 samples.

Results

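The AXL, MET, IGF and FGF receptors are receptor tyrosine kinases, cell-surface proteins that bind a ligand outside the cell and phosphorylate tyrosines inside it. The set described here held 10 genes: the TAM receptors AXL, MERTK and TYRO3 with their ligands GAS6 and PROS1, MET with its ligand HGF, and the receptors IGF1R, FGFR1 and DDR1. Members were taken as the probe sets that the array's annotation assigns to 1 of these genes alone, which gave 28 of the 22283 probe sets on the array and covered 9 of the 10 genes, out of 11963 genes read this way. All 4 probe sets of DDR1, a collagen receptor, are annotated together with a microRNA gene, so DDR1 has no value here. The cells came from 1 established line, MDA-MB-231, derived from a human breast cancer, mesenchymal-like and often used to study bone metastasis. They were electroporated either with siPTHrP, an siRNA against parathyroid hormone-related protein, or with siLuc, a control siRNA against luciferase, and total RNA was taken after 3 days. PTHrP is a secreted peptide known for promoting bone destruction by breast cancer cells. There were 3 independent experiments, each with 1 siPTHrP and 1 siLuc RNA, so each group held 3 arrays of the same line. With so few arrays, their number limits the precision of what follows.

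TAM receptors bind GAS6 or protein S, the product of PROS1, which bridge the receptor to phosphatidylserine on membranes. AXL is known in breast cancer cells for its link to invasion, and MET, the receptor of hepatocyte growth factor (HGF), for its part in scattering and motility. IGF1R carries the survival signal of insulin-like growth factors, which bone matrix stores, and FGFR1 that of fibroblast growth factors. All of them signal through shared adaptors to the PI3K and RAS branches.

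None of the members passed the test over all probe sets. The 2 kept member probe sets with the smallest p were of the ligands HGF and GAS6. The other kept ligand probe sets had an unadjusted limma p of 0.157 (PROS1, higher with siPTHrP) and 0.617 (GAS6 202177_at). Probe sets of the receptors AXL, FGFR1 and MET came next after GAS6, at 0.0520, 0.0617 and 0.0634. HGF had a signal of 634 ± 46.7 with siPTHrP and 1492 ± 629 with siLuc on its brightest probe set (SD, n = 3 each), and GAS6 had 10930 ± 867 with siPTHrP and 14440 ± 1475 with siLuc on its brightest one. Of the receptors, AXL had a lower mean with siPTHrP on both of its probe sets and MET a higher mean on each of its 4, with wide intervals that include 0. Of the 28 probe sets 20 were kept by a filter on dim signal, which asked for a mean of log2(signal + 16) over the 6 arrays at or above the 40th percentile. Of these 20, 2 had an unadjusted limma p under 0.05, both lower with siPTHrP, in a background where 12.1% of all 13329 kept probe sets did so in either direction and 5.36% in the lower one (6.77% in the higher one). With the Benjamini-Hochberg adjusted p under 0.05 the count was 0 of 20, against 0 of 13329 over all kept probe sets (0%), and the smallest adjusted p among the members was 0.366. The median log2 fold change (siPTHrP over siLuc) was -0.13 over the 20 kept member probe sets and 0.030 over all kept ones. In 8 of the 20 the fold change was above 0, against 52.5% of all kept probe sets. Every experiment gave the same sign for 5 of the 20, where the background is 38.1%: 2 were higher with siPTHrP (background 19.1%) and 3 lower (background 19.0%).

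**Figure D1:**
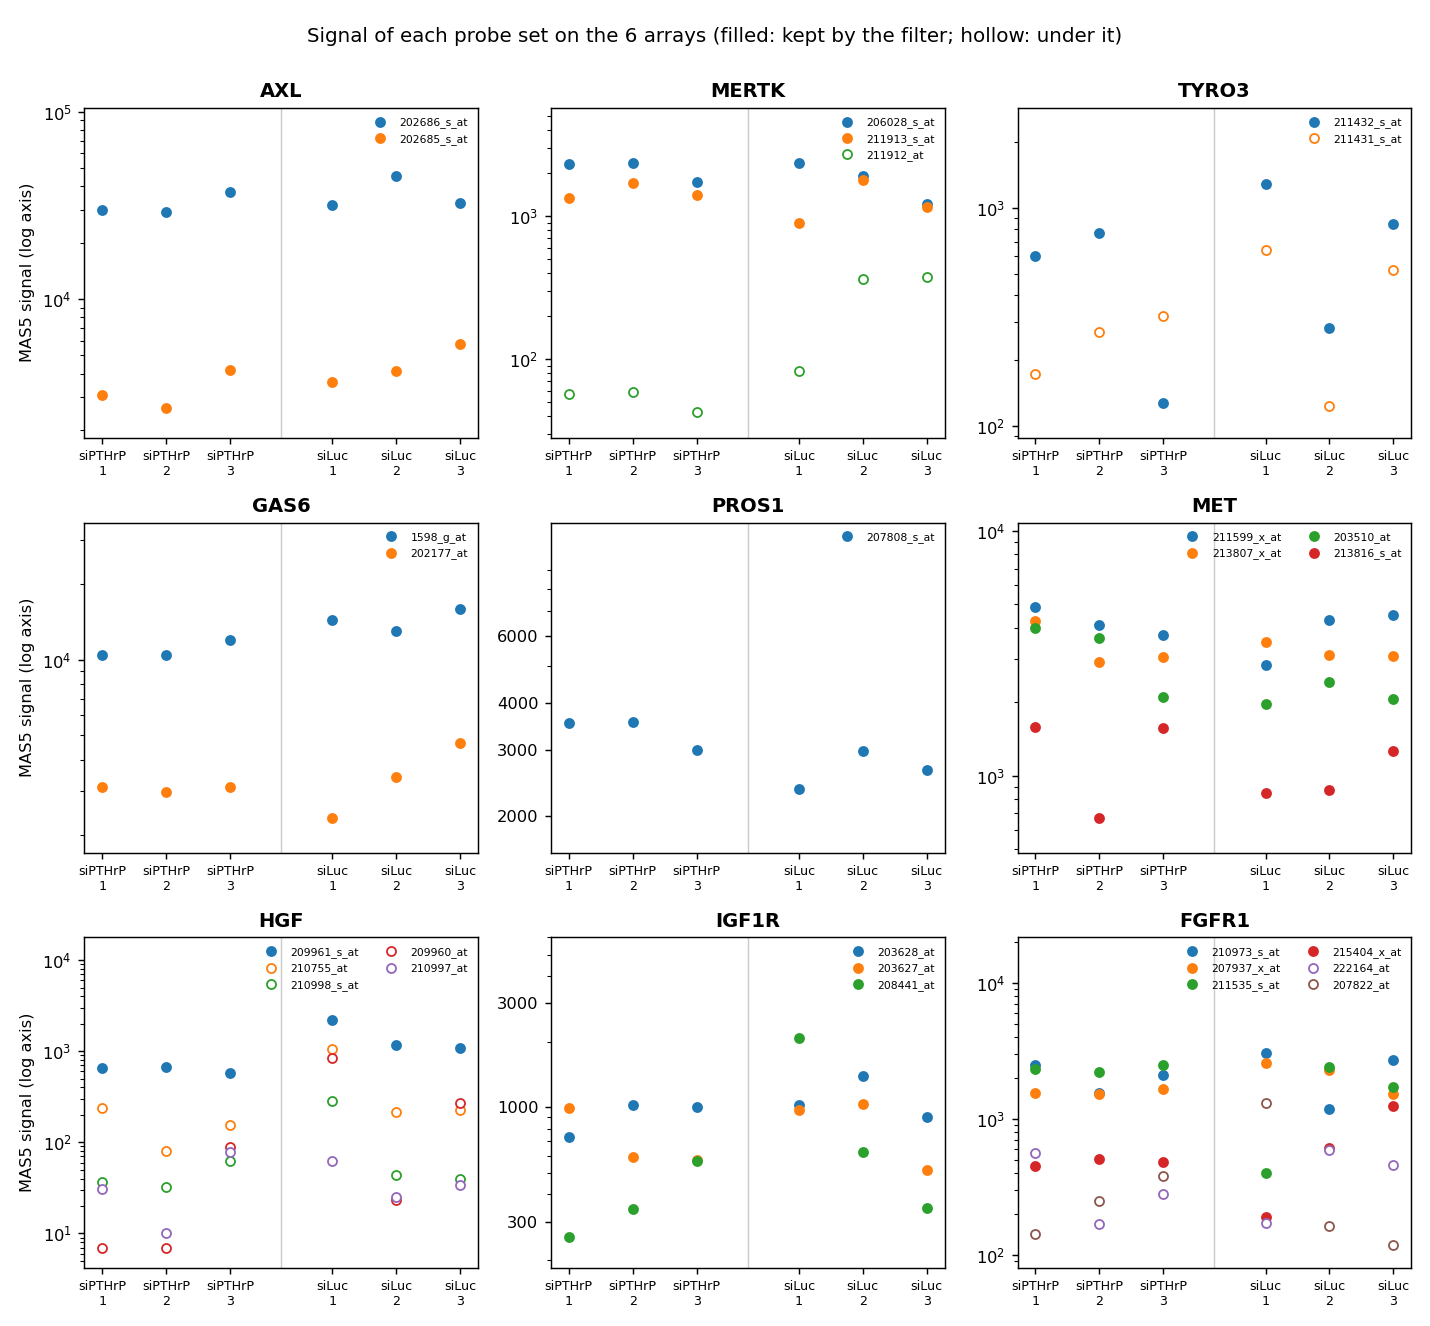
Deposited MAS5 signal (log axis) of each of the 28 member probe sets on the 3 siPTHrP and 3 siLuc arrays, numbered by experiment, with 1 panel a gene and 1 colour a probe set. Filled points are the 20 probe sets kept by the filter and hollow ones the 8 under it. HGF 209961_s_at lies at 580 to 665 on the siPTHrP arrays and at 1077 to 2215 on the siLuc arrays.

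One array, siLuc of experiment 1, was unlike the rest. Ranked across probe sets, it correlated with the other arrays at 0.716 to 0.725 (Spearman), and the remaining 5 among themselves at 0.882 to 0.960. Its spiked hybridisation controls and ribosomal RNA controls were the brightest, at geometric means of 273100 and 134200, against 10840 to 41430 and 1155 to 22500 on the other 5 arrays. Its part in the results was not tested beyond leaving it out. This array was the highest of the 6 for 6 of the 20 kept member probe sets (30.0%) and the lowest for 7 (35.0%), near the 30.2% and 33.8% of all kept probe sets. Of the 8 member probe sets under the filter it was the highest for 5, and of all 8886 probe sets under the filter for 49.9%. Where leaving it or experiment 1 out moves the fold change of a member probe set or a list median by over 1.5 times, or turns its sign, the value without it is given too. Markers of the line were bright on every array: the summed signal of VIM, CD44, CAV1, MSN and ANXA1 was 170100 to 219400 with siPTHrP and 180800 to 207400 with siLuc. Haematopoietic markers (4 of 5 measured) summed to 1379 to 1605 with siPTHrP and 1443 to 3557 with siLuc, and endothelial ones (4 of 4) to 728 to 1643 with siPTHrP and 1505 to 4759 with siLuc. Luminal markers (7 of 7) summed to 12750 to 16020 with siPTHrP and 15170 to 18200 with siLuc. Fibroblast markers (5 of 5) summed to 3088 to 3763 with siPTHrP and 3415 to 4656 with siLuc. The highest siLuc sums of haematopoietic, endothelial and luminal markers were those of the siLuc array of experiment 1. Its sums of fibroblast markers and of markers of the line were the lowest with siLuc. On the other siLuc arrays the haematopoietic sums lay within the siPTHrP range. Of all these markers 0 were listed at 0, detection calls were not used here, and the part of other cell types in the results was not tested. Transcript of the siRNA's target was not analysed here, so the knockdown was not checked. In bulk RNA, fewer cells expressing a gene and less RNA per cell cannot be told apart.

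HGF, the ligand that activates MET, had the smallest p among the members. Its brightest probe set, 209961_s_at, gave a signal of 656, 665 and 580 in siPTHrP experiments 1, 2 and 3, against 2215, 1183 and 1077 in the siLuc arrays of the same experiments. The groups did not overlap, and all 3 siPTHrP arrays were close together while the siLuc array of experiment 1 was the highest. On each siPTHrP array the HGF signal was near the median signal of that array, and on each siLuc array above it. Whether HGF is expressed in these cells was not tested. The fitted log2 fold change was -1.14 (SE 0.40, 95% interval -2.03 to -0.25), or 0.454-fold, with an unadjusted p of 0.0177 and a limma adjusted p of 0.366. It was -1.73, -0.82 and -0.88 in experiments 1, 2 and 3. Without experiment 1 it was -0.85 (adjusted p = 0.331 in limma), and without only the siLuc array of that experiment -0.82 (adjusted p = 0.367 in limma). The other 4 HGF probe sets were under the filter and are given from a fit without it. Probe set 209960_at had signals of 7, 7 and 89 with siPTHrP and 849, 23 and 267 with siLuc. Its log2 fold change of -2.48 (SE 0.90, unadjusted p = 0.0199, limma adjusted p = 0.415) held a log2 difference of -5.23 in experiment 1, against -0.76 and -1.43 in experiments 2 and 3. Probe set 210755_at had 236, 80 and 153 with siPTHrP and 1052, 217 and 224 with siLuc, which overlap only through experiment 1 of siPTHrP, and a log2 fold change of -1.29 (SE 0.76). The dimmest, 210998_s_at and 210997_at, gave -0.78 and -0.16 with intervals from -2.42 to 0.86 and from -1.44 to 1.12. All 5 HGF probe sets lay below 0 with all 6 arrays, but only 3 did so without the siLuc array of experiment 1. Without that array the values were -0.56 for 210755_at, -1.46 for 209960_at, 0.015 for 210998_s_at and 0.10 for 210997_at. Without the whole of experiment 1 they were -0.89, -1.10, 0.087 and 0.13 in the same order, and 210997_at was also at 0.45 with quantile normalization and 0.16 with median centring. Of the 5, only 209961_s_at had groups that did not overlap. Of the 4 endothelial markers, PECAM1 was also lower with siPTHrP (log2 fold change -1.40). Its groups did not overlap, as on 18.6% of all kept probe sets. The other endothelial markers were under the filter and overlapped between the groups, with VWF at 0.11, CDH5 at -2.00 and TEK at -1.08. A link to HGF was not tested.

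MET, the receptor of HGF, was measured by 4 probe sets, all of them kept and all above 0 (213807_x_at was at -0.019 with quantile normalization), and none passed the test. The probe set with the smallest p, 203510_at, had a signal of 3998, 3645 and 2090 with siPTHrP, against 1956, 2416 and 2050 with siLuc. The siPTHrP arrays of experiments 1 and 2 lay above all siLuc arrays, while both arrays of experiment 3 were alike, with log2 differences of 1.02, 0.59 and 0.028. The log2 fold change was 0.55 (SE 0.26, 95% interval -0.038 to 1.13, limma adjusted p = 0.431), and 0.31 without experiment 1 or 0.49 without its siLuc array. The other 3 gave smaller values. Probe set 211599_x_at had 4890, 4127 and 3758 with siPTHrP and 2827, 4324 and 4545 with siLuc, a log2 fold change of 0.15 (SE 0.24). Its sign came from experiment 1 alone, and without that experiment it was -0.17. For 213807_x_at the signals were 4291, 2896 and 3037 with siPTHrP and 3524, 3112 and 3070 with siLuc (log2 fold change 0.055, SE 0.21). For 213816_s_at they were 1575, 668 and 1564 with siPTHrP and 849, 872 and 1262 with siLuc (0.27, SE 0.38). Both of these also turned below 0 without experiment 1, at -0.059 and -0.035. Without the siLuc array of that experiment alone the 3 values were -0.066, 0.12 and 0.17. Probe sets ending in _x_at can bind transcripts of other genes, and those ending in _s_at several transcripts of a gene or family. These MET readings are therefore less specific than that of 203510_at. The same limit holds for other members with these endings, among them HGF 209961_s_at, both AXL probe sets and the PROS1 probe set.

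**Figure D2:**
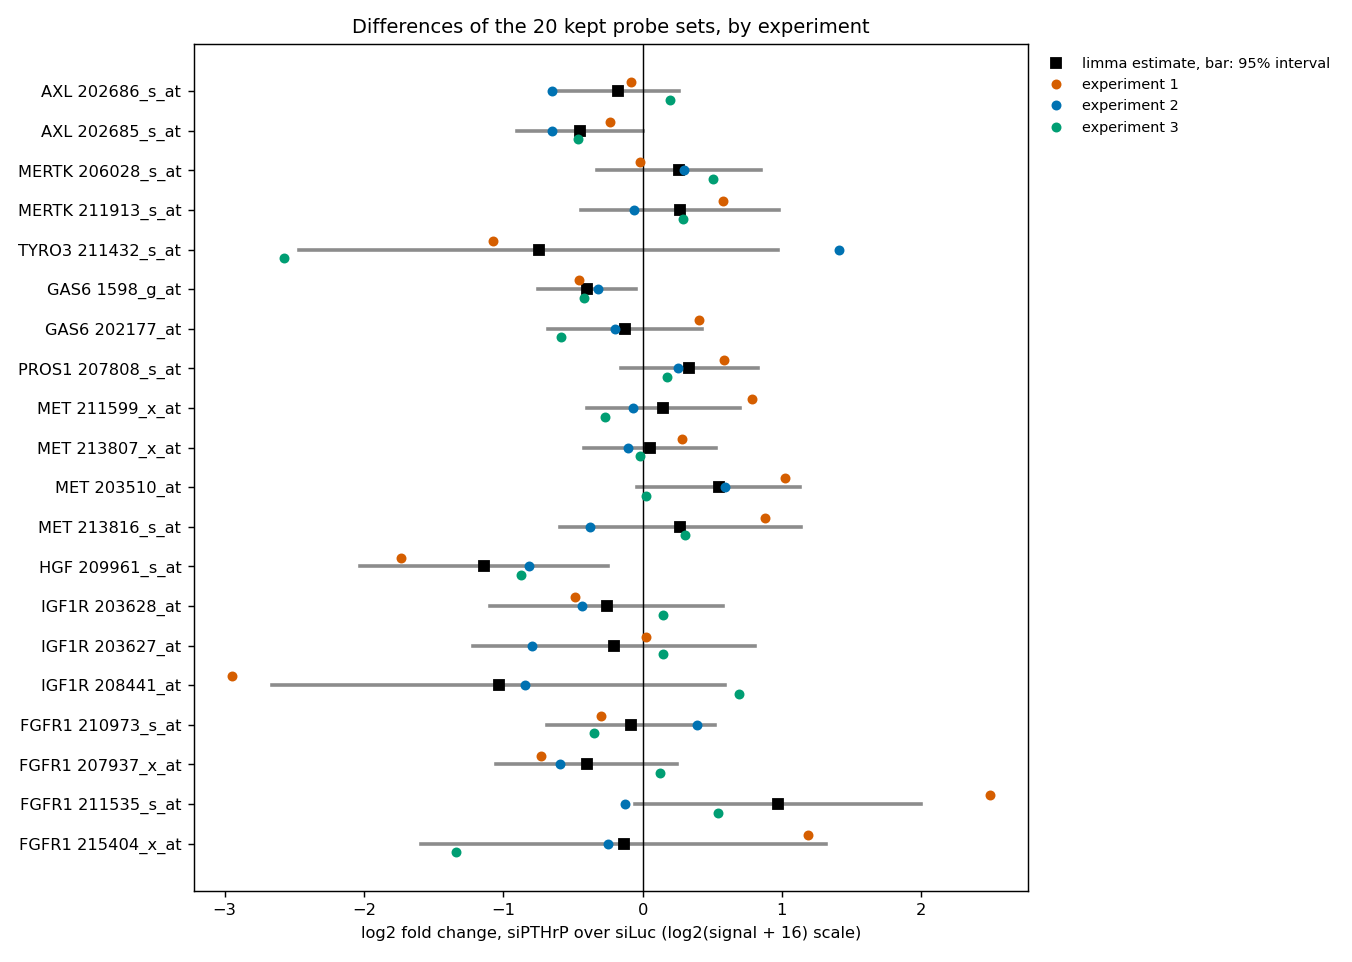
Log2 fold change (siPTHrP over siLuc) of the 20 kept member probe sets: black squares are limma estimates with 95% intervals as grey bars, and coloured points are the 3 experiments. The intervals of HGF 209961_s_at and GAS6 1598_g_at end below 0, at -0.25 and -0.048, and the other 18 include 0.

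GAS6, the vitamin K-dependent ligand of all 3 TAM receptors, had lower signal with siPTHrP on its brightest probe set. On 1598_g_at it was 10437, 10419 and 11930 with siPTHrP, against 14346, 13018 and 15964 with siLuc. The groups did not overlap, and the log2 differences of -0.46, -0.32 and -0.42 in experiments 1, 2 and 3 were close to each other. The log2 fold change was -0.40 (SE 0.16, 95% interval -0.75 to -0.048), or 0.758-fold, with an unadjusted p of 0.0299 and a limma adjusted p of 0.394. It was -0.37 without experiment 1 and -0.40 without the siLuc array of that experiment. The second probe set, 202177_at, had 3109, 2960 and 3114 with siPTHrP and 2344, 3405 and 4678 with siLuc. There the siPTHrP arrays were alike and the siLuc arrays spread on both sides of them, with a log2 fold change of -0.13 (SE 0.25 and adjusted p = 0.838 in limma). It was -0.39 without experiment 1 and -0.38 without its siLuc array, and 0.10 without experiment 3. PROS1, which encodes protein S, an anticoagulant that also activates TYRO3 and MERTK, had a signal of 3534, 3550 and 2998 with siPTHrP, against 2357, 2976 and 2657 with siLuc. Its groups did not overlap either, in the opposite direction to GAS6, with a log2 fold change of 0.34 (SE 0.22, 95% interval -0.16 to 0.83, limma adjusted p = 0.521). It was 0.21 without experiment 1 and 0.25 without its siLuc array. Groups that do not overlap were found for 3 of the 20 kept member probe sets, and for 18.6% of all kept probe sets. Of the 3, HGF and GAS6 were lower with siPTHrP (background 9.69%) and PROS1 higher (background 8.94%).

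AXL was measured by 2 probe sets, both with lower means with siPTHrP. On 202685_s_at the signal was 3065, 2617 and 4185 with siPTHrP, against 3606, 4121 and 5785 with siLuc. Each siPTHrP array lay below the siLuc array of its experiment, although the groups overlapped, because both arrays of experiment 3 were brighter than the others. The log2 fold change was -0.45 (SE 0.20, 95% interval -0.91 to 0.0050, unadjusted p = 0.0520, limma adjusted p = 0.413). It was -0.56 without experiment 1 (unadjusted p = 0.0150, limma adjusted p = 0.245). Without the siLuc array of that experiment it was -0.60 (unadjusted p = 0.0416, limma adjusted p = 0.390). In these fits 13.8% and 12.6% of all kept probe sets had an unadjusted p under 0.05. Without experiment 2 it was -0.35 and without experiment 3 -0.44, where the unadjusted p was not under 0.05 (limma adjusted p = 0.78 and 0.62). The brighter probe set, 202686_s_at, had 30049, 29169 and 37404 with siPTHrP and 31788, 45709 and 32617 with siLuc. The siPTHrP array was below its siLuc array in experiments 1 and 2 and above it in experiment 3, with log2 differences of -0.081, -0.65 and 0.20, and the log2 fold change was -0.18 (SE 0.19, limma adjusted p = 0.700), or -0.27 without the siLuc array of experiment 1.

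MERTK, the TAM receptor known for the clearance of dying cells by macrophages, had probe sets with fold changes of opposite sign. On 206028_s_at it had 2316, 2344 and 1734 with siPTHrP and 2350, 1905 and 1216 with siLuc, and on 211913_s_at 1339, 1697 and 1411 with siPTHrP and 891, 1776 and 1151 with siLuc. These gave log2 fold changes of 0.26 (SE 0.26) and 0.27 (SE 0.31), with limma adjusted p-values of 0.675 and 0.725. Without the siLuc array of experiment 1 they were 0.47 and 0.044, and without the whole experiment 0.40 and 0.11. The third, 211912_at, was under the filter, with 57, 59 and 43 with siPTHrP against 82, 361 and 376 with siLuc. Here the groups did not overlap and the fit without the filter gave a log2 fold change of -1.83 (SE 0.79, unadjusted p = 0.0419, limma adjusted p = 0.428), where 11.3% of all 22215 probe sets had an unadjusted p under 0.05 (6.88% in the lower direction) and 18.8% had groups that did not overlap. TYRO3, the TAM receptor known best from the nervous system, was uneven: 211432_s_at had 601, 769 and 128 with siPTHrP and 1284, 280 and 840 with siLuc. The experiments disagreed in sign, with log2 differences of -1.08, 1.41 and -2.57, and the log2 fold change of -0.75 had an interval from -2.47 to 0.98 and was -0.29 without the siLuc array of experiment 1. Its second probe set, 211431_s_at, under the filter, had 173, 271 and 321 with siPTHrP and 644, 124 and 522 with siLuc (-0.48, SE 0.78), and its value was -0.059 without that array and 0.18 without experiment 1.

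The promoters of HGF, GAS6 and AXL are shown. They were chosen because the brightest HGF and GAS6 probe sets and both AXL probe sets had lower means with siPTHrP. Lower means were not particular to these genes: all 3 IGF1R and both TYRO3 probe sets had them too. A further reason was that PTHrP is known to act through cAMP, whose response element can be looked for. Each promoter shown is the 250 bases before the gene's start in RefSeq (GRCh38.p14), 5′ to 3′ on the gene's strand, with matches to the searched motifs in capitals.
HGF, chr7:81770048-81770297, minus strand: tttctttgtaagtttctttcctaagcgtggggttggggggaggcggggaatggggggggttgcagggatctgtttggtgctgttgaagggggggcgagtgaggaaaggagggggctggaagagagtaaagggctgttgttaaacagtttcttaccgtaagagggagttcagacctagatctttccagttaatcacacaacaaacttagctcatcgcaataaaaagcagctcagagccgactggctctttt
GAS6, chr13:113864077-113864326, minus strand: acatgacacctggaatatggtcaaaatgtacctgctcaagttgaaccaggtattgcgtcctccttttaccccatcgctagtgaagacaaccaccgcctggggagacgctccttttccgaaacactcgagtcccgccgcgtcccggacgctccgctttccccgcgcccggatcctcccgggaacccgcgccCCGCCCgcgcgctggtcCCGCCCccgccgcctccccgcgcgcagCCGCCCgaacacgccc
AXL, chr19:41218973-41219222, plus strand, the first of 2 listed starts: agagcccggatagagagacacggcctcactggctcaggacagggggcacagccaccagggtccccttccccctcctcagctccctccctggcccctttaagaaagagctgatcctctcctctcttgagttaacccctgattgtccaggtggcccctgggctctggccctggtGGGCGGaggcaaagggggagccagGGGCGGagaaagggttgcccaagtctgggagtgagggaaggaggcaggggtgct
Both strands were searched for GGGCGG, the GC box bound by Sp1-type factors, TGACGTCA, the cAMP response element, its core TGACG, which the whole element contains, and TGANTCA, the AP-1 site. GAS6 held 3 GC boxes and AXL 2, all of the capitals above, and HGF held none of the 4 motifs. Among 35116 promoter windows of the same length 42.6% held a GC box, 1.65% the cAMP response element, 21.2% its core and 6.57% the AP-1 site. The whole cAMP response element was in 0 of the 18 windows listed for 9 members. These 9 include DDR1, and FGFR1 had no window. Its core was found once each in PROS1, in 1 of 2 windows of TYRO3, in the second AXL window and in 1 of 8 windows of DDR1. The AP-1 site was found in 1 window of TYRO3 and 1 of DDR1. GC boxes were not particular to the genes shown: MERTK held 4, the first TYRO3 window 3, PROS1, MET and IGF1R 2 each, and several DDR1 windows at least 1. These matches describe letters and not binding.

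IGF1R was measured by 3 probe sets, all kept by the filter and all overlapping between the groups. On 203628_at it had 731, 1028 and 1002 with siPTHrP and 1028, 1393 and 906 with siLuc, and on 203627_at 992, 592 and 572 with siPTHrP and 974, 1039 and 516 with siLuc. The log2 fold changes were -0.26 (SE 0.37) and -0.21 (SE 0.45), with limma adjusted p-values of 0.777 and 0.860. Without the siLuc array of experiment 1 they were -0.30 and -0.074, and without the whole experiment -0.14 and -0.32. On both, experiment 2 was lower with siPTHrP and experiment 3 slightly higher. The third probe set, 208441_at, had 256, 343 and 568 with siPTHrP and 2083, 628 and 345 with siLuc. Its log2 fold change of -1.03 (SE 0.72 and adjusted p = 0.546 in limma) was set by the siLuc array of experiment 1. Without that experiment it was -0.075, and without the array alone -0.33.

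FGFR1 had 6 probe sets, 4 of them kept, and they gave no common direction. The one with the largest difference, 211535_s_at, had a signal of 2327, 2215 and 2511 with siPTHrP, against 400, 2421 and 1719 with siLuc. Only the siLuc array of experiment 1 was far from the rest. The log2 fold change was 0.97 (SE 0.46, 95% interval -0.058 to 2.00, limma adjusted p = 0.429), and 0.21 without experiment 1 or 0.20 without that array. The brightest, 210973_s_at, had 2498, 1565 and 2123 with siPTHrP and 3077, 1190 and 2708 with siLuc (log2 fold change -0.086, SE 0.27). On 207937_x_at the signals were 1548, 1527 and 1656 with siPTHrP and 2580, 2314 and 1517 with siLuc (-0.40, SE 0.29). On 215404_x_at they were 453, 508 and 480 with siPTHrP and 190, 607 and 1240 with siLuc (-0.13, SE 0.65). In all 3 the siPTHrP arrays lay closer together than the siLuc arrays, which spread to both sides of them or, for 207937_x_at, mostly above. Without the siLuc array of experiment 1 the values of these 3 were 0.17, -0.25 and -0.83, and without the whole experiment 0.021, -0.23 and -0.80. The dim probe sets 222164_at and 207822_at gave -0.26 (SE 0.80) and -0.31 (SE 0.94) in the fit without the filter, and lay above 0 with quantile normalization (0.12 and 0.071) and median centring (0.064 and 0.019). They were -0.76 and 0.72 without the siLuc array of experiment 1, and -1.20 and 1.06 without the whole experiment.

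**Figure D3:**
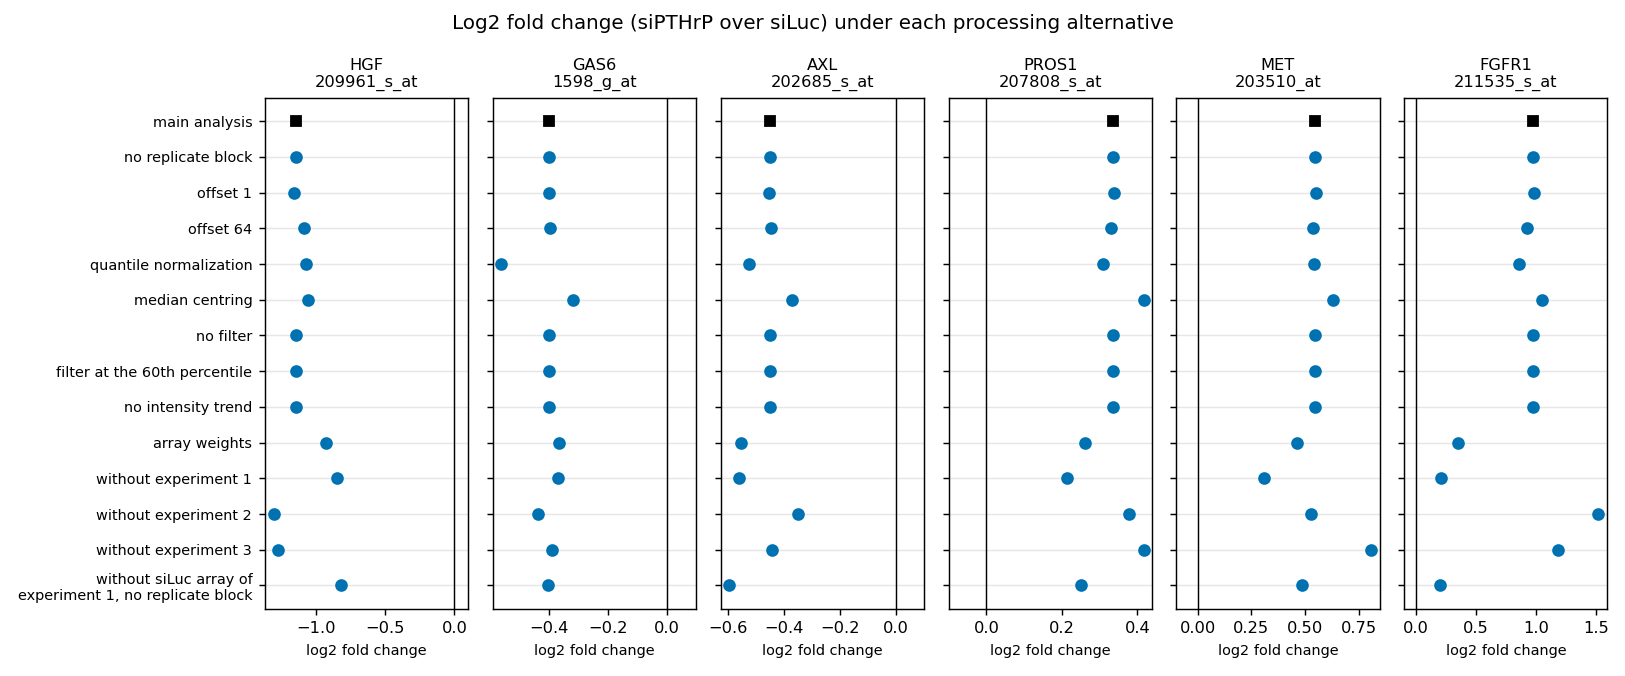
Log2 fold change (siPTHrP over siLuc) of 6 probe sets, 1 panel each, in the main analysis (black square) and under 13 processing alternatives (blue points). HGF 209961_s_at stays between -1.30 and -0.82 and FGFR1 211535_s_at moves between 0.20 and 1.52, with its lowest values where the siLuc array of experiment 1 is left out.

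Genes that act around these receptors were taken from 8 lists, 164 genes in all, of which 106 had a kept probe set, and each gene was read by its brightest one. At the adjusted threshold 0 of the 106 genes passed, against 0% of all 8120 genes read this way. At an unadjusted limma p under 0.05 there were 14 higher and 7 lower with siPTHrP (19.8% in either direction), and over all genes read this way 7.06% were higher and 5.57% lower (12.6% in all). In 60 of the 106 the fold change was above 0, against 52.7% of all genes. The median was 0.11 over the 106 genes and 0.033 over all genes. Without experiment 1 the counts were 15 higher and 8 lower of 101 genes, with 13.8% of all probe sets under 0.05 in that fit. The surplus of higher genes depended on the fit. There were 7 higher and 7 lower of 104 genes without experiment 2 (9.96% of all kept probe sets under 0.05). With no intensity trend there were 6 higher and 8 lower of 106 genes (9.94% of all kept probe sets). The shares over all genes in the main fit, 7.06% higher and 5.57% lower, are also the background for the counts of each list below.

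The IGF axis, with 11 of 16 genes kept, had a list median of 0.46, with 5 higher and 1 lower at an unadjusted p under 0.05. Its median was 0.53, 0.33 and 0.54 in experiments 1, 2 and 3, and 0.39 without experiment 1. Without the siLuc array of experiment 1 alone it was 0.25, with 4 higher and 1 lower. In that fit 12.6% of all kept probe sets had an unadjusted p under 0.05. IGFBP7, a secreted protein of the IGF-binding protein family, had signals of 21816, 20820 and 16745 with siPTHrP, against 11940, 15733 and 7669 with siLuc. The siPTHrP arrays all lay above the siLuc arrays, with a log2 fold change of 0.80 (SE 0.18 and unadjusted p = 0.00166, limma adjusted p = 0.321), and its second kept probe set gave 0.83. IGFBP1, which binds IGFs in serum, had 2457, 1245 and 1400 with siPTHrP, against 1100, 646 and 673 with siLuc (1.04, SE 0.34, limma adjusted p = 0.356). IGFALS, the acid-labile subunit that holds IGFs in a circulating complex, had 397, 502 and 311 with siPTHrP, against 2080, 912 and 1271 with siLuc (-1.72, SE 0.48, limma adjusted p = 0.328). On the brightest probe sets of these 3 genes, picked for their small p, the groups did not overlap, as on 18.6% of all kept probe sets. On the second kept IGFBP7 probe set they overlapped. A dim IGFBP7 probe set gave -1.12 (SE 0.83) in the fit without the filter, also with overlap. The other genes at an unadjusted p under 0.05 were IRS1 and IRS2, which dock to IGF1R, and IGF2R, which clears IGF2, chosen here after their values were seen. They stood at 1.56-fold, 1.43-fold and 1.59-fold.

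The HGF and MET axis, with 8 of 11 genes kept, had a median of 0.33, which came from experiment 1 (0.80, -0.037 and -0.059 in experiments 1, 2 and 3) and was -0.14 without it and -0.19 without its siLuc array. RANBP9, a scaffold that binds MET, had 5188, 5830 and 2836 with siPTHrP, against 2473, 2976 and 2592 with siLuc, a log2 fold change of 0.72 (SE 0.24 and adjusted p = 0.362 in limma). The other kept RANBP9 probe sets gave 0.74 and 0.38. MST1R, the MET-related receptor RON, had 812, 421 and 1185 with siPTHrP, against 2159, 1176 and 1266 with siLuc (-0.98, SE 0.41, limma adjusted p = 0.402). SPINT2, an inhibitor of the proteases that activate HGF, stood at 1.29-fold (limma adjusted p = 0.438), and its log2 fold change of 0.37 was 0.24 without the siLuc array of experiment 1. The FGF axis, with 12 of 25 genes kept, had 0 genes at an unadjusted p under 0.05 and a median of -0.70, made of -1.90, -0.034 and 0.068 in experiments 1, 2 and 3. Without experiment 1 it was -0.053, and without its siLuc array -0.19. With the filter at the 60th percentile it turned sign, to 0.19. FGF17, a ligand, stood at 0.332-fold, FGFR3, a receptor, at 0.413-fold and FIBP, an intracellular protein that binds FGF1, at 1.26-fold, with limma adjusted p-values from 0.425 to 0.455. For FGFR3 the log2 fold change was -0.44 without experiment 1 and -0.83 without its siLuc array, and in both of these fits FGF17 was under the filter.

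**Figure D4:**
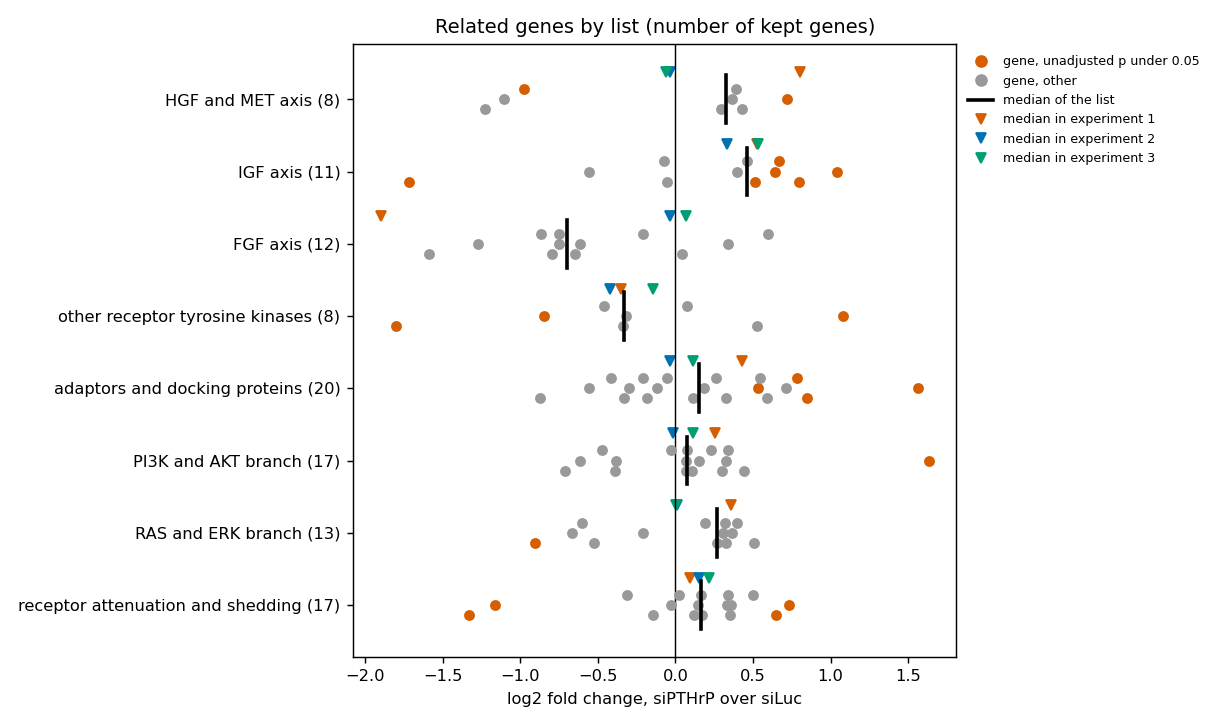
Log2 fold change (siPTHrP over siLuc) of each kept gene in the 8 lists of related genes, with the number of kept genes beside the list's name. Orange points have an unadjusted limma p under 0.05, black bars are list medians, and coloured triangles are the medians in each experiment, which for the FGF axis are -1.90, -0.034 and 0.068.

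Adaptors and docking proteins, with 20 of 25 genes kept, had 4 genes higher and 0 lower at an unadjusted p under 0.05 and a median of 0.15 (0.056 without experiment 1 and 0.098 without its siLuc array). GAB2, which docks PI3K and SHP2, had 1568, 2157 and 1692 with siPTHrP, against 363, 1604 and 355 with siLuc (log2 fold change 1.56, SE 0.44, limma adjusted p = 0.328). The siLuc array of experiment 2 was close to the siPTHrP level and the other siLuc arrays far below. GRB10, an adaptor that restrains IGF1R and insulin receptor signals, had 3951, 3621 and 3705 with siPTHrP, against 2964, 1868 and 1868 with siLuc (0.78, SE 0.23, limma adjusted p = 0.332), and its other kept probe sets gave 0.72 and 0.096. YES1, a SRC family kinase, had 2518, 2772 and 2677 with siPTHrP, against 1522, 1478 and 1395 with siLuc (0.85, SE 0.25, limma adjusted p = 0.332). Its arrays agree closely within each group, though its second kept probe set gave 0.24 and a dim one -1.91. The fourth gene, SHC1, chosen here after its value was seen, stood at 1.45-fold.

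In the RAS and ERK branch, with 13 of 20 genes kept and a median of 0.26 (0.050 without experiment 1 and 0.072 without its siLuc array), RRAS2, a RAS-related GTPase, was the 1 gene at an unadjusted p under 0.05. It had 1802, 2088 and 2031 with siPTHrP, against 3395, 4231 and 3551 with siLuc. The groups were well apart and the log2 differences of -0.91, -1.01 and -0.80 alike, with a log2 fold change of -0.91 (SE 0.22, unadjusted p = 0.00244, limma adjusted p = 0.324). Its other kept probe sets gave -0.37 and -0.12. HRAS stood at 1.42-fold and the ERK-activated kinase RPS6KA1 at 0.629-fold, with limma adjusted p-values of 0.453 and 0.504. The log2 fold change of RPS6KA1 was -0.67, and -0.17 without experiment 1 and -0.27 without its siLuc array. The PI3K and AKT branch, with 17 of 26 genes kept, had a median of 0.072 and 1 gene at an unadjusted p under 0.05. The median was 0.0040 without experiment 1, -0.061 without its siLuc array and -0.38 without _x_at and _s_at probe sets. The 1 gene was TSC2, a brake on MTOR, with 1670, 1649 and 2101 with siPTHrP and 85, 1665 and 1157 with siLuc. Its log2 fold change of 1.64 came from the siLuc array of experiment 1 and was 0.37 without it. MTOR stood at 0.611-fold and the lipid phosphatase INPPL1 at 1.25-fold. As log2 fold changes these were -0.71 and 0.33, against -0.20 and 0.17 without experiment 1 and -0.43 and 0.10 without its siLuc array.

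Among genes of receptor attenuation and shedding, with 17 of 22 kept and a median of 0.16 (0.18 without experiment 1 and 0.30 without its siLuc array), 2 were higher and 2 lower at an unadjusted p under 0.05. SOCS3, a cytokine-induced inhibitor, had 792, 1030 and 1019 with siPTHrP, against 3420, 1544 and 2590 with siLuc (log2 fold change -1.33, SE 0.35, limma adjusted p = 0.324). The groups did not overlap, and the value was -0.95 without experiment 1, but its other kept probe sets gave -0.80 and 0.087. SOCS1, of the same family, stood at 0.446-fold (log2 -1.17, and -0.72 without experiment 1) and STAM, which sorts endocytosed receptors, at 1.66-fold, with limma adjusted p-values of 0.370 and 0.366. The fourth gene, EPS15, another endocytic adaptor and chosen here after its value was seen, stood at 1.57-fold. Other receptor tyrosine kinases, with 8 of 19 kept, had a median of -0.33. It was -0.14 both without experiment 1 and without its siLuc array, and -0.85 without _x_at and _s_at probe sets. In this list stood STYK1 at 0.287-fold, NTRK2, a neurotrophin receptor, at 0.556-fold and PTK7, a kinase-dead receptor of planar polarity, at 2.11-fold. For PTK7 the log2 fold change of 1.08 was 0.43 without experiment 1, in which fit STYK1 was under the filter, and the limma adjusted p-values of the 3 were 0.379 to 0.408.

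By Pearson correlation of log2(signal + 16) over the 6 arrays, the probe sets most like the brightest AXL probe set were those of PIEZO2 (0.985), ENO1 (0.976) and INVS (0.973). Over the 5 arrays without the siLuc array of experiment 1 they gave 0.993, 0.984 and 0.993. For the brightest MET probe set they were NFYA (0.992), SEC14L1 (0.988) and AP3D1 (0.985), with 0.975, 0.944 and 0.932 over those 5 arrays. They were the highest of 11770 and 11768 candidates, and 32 and 460 candidates were above 0.9. The 6 arrays share scaling and experiments, so these values are a description only.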

How the data were processed

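The values were the authors' deposited linear signal intensities, made with MAS5 per the submitters' processing notes. Its version is not given in the sources used here. Trimmed means (2% at each end) were 1500.4 to 1500.6 on all arrays, and this common scaling was kept. Only the siLuc array of experiment 1 held values with decimals, so equal trimmed means do not show equal processing. RNA was isolated with RNeasy, labelled with biotin and hybridised to type A arrays of the Affymetrix human genome U133 set, per the labels' protocols. The members and gene lists were chosen with earlier results of these data known.

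R 4.3.3 and limma 3.58.1 were used. From 22283 probe sets, 68 controls were left out, and of the rest those with a mean log2(intensity + 16) at or above the 40th percentile (8.614) were kept, 13329 in all. Fold changes of dim signals are made smaller by the offset. The model held siRNA and experiment (lmFit, eBayes with intensity trend, 2 residual and 7.17 prior degrees of freedom), with two-sided p-values adjusted by Benjamini-Hochberg over all kept probe sets at a threshold of 0.05. Steps were tested on simulated data. Members under the filter were read from a fit of all 22215 probe sets, whose median log2 fold change was -0.16.

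The design text states that numbers mark experiments whose RNAs were compared, so the experiment was a block. Deviations from group means correlated at -0.012, 0.157 and 0.157 for pairs of experiments 1, 2 and 3, and at -0.206 to 0.132 for other pairs. The siLuc sample with no number was taken as experiment 1 by elimination, and for the siLuc sample of experiment 3 the title was followed over the description, which has another number.

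Genes were assigned through the platform annotation (1 gene for 19071, several for 1043, none for 2169), with symbols updated through RefSeq (GRCh38.p14). Named genes are all members, the 3 genes of each list with the smallest p, and the 3 probe sets most correlated with AXL and MET. IRS1, IRS2, IGF2R, SHC1 and EPS15 fall outside this rule and were named after their values were seen, to complete short counts. Alternatives were leaving the block out of the model, an offset of 1 or of 64, median centring, quantile normalization, array weights, a fit without trend, no filter, a filter at the 60th percentile, leaving out each experiment, leaving out the siLuc array of experiment 1 with no block, and, for lists, leaving out _x_at and _s_at probe sets or averaging a gene's probe sets. Parts left out were filtered anew.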

Additional observations from a re-analysis of the deposited data

How the results depend on the processing

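Over all kept probe sets the count past the adjusted threshold was 0 in the main analysis and with no replicate block, 177 with array weights, between 33 and 215 when 1 experiment was left out, and 0 when only the siLuc array of experiment 1 was left out. Member probe sets past it numbered 0 under all 13 alternatives. Related genes past it numbered 0, except for 2 with array weights, GRB10 (adjusted p = 0.0395 in limma) and RRAS2 (adjusted p = 0.0348 in limma). Both arrays of an experiment had the same weight, 0.386, 2.232 and 1.161 in experiments 1, 2 and 3. That fit therefore weighted experiments and did not single out the siLuc array of experiment 1. Member probe sets at an unadjusted p under 0.05 numbered 2 in the main analysis and with no replicate block, 1 with median centring (where 12.4% of all kept probe sets were), 1 with no intensity trend (9.94%), 4 with no filter (11.3% of all probe sets), 4 with array weights (17.4%), and 2 to 4 with an experiment left out (9.96% to 13.8%). HGF 209961_s_at was among them under all 13 alternatives, with a log2 fold change of -1.30 to -0.82 and a limma adjusted p of 0.170 to 0.500. GAS6 1598_g_at ranged from -0.56 to -0.32, AXL 202685_s_at from -0.60 to -0.35 and MET 203510_at from 0.31 to 0.81. The replicate block changed no call of a member. Of 344 member values under an alternative 34 turned sign, and no member probe set was past the threshold in any fit. With 1 experiment left out, the log2 fold change ranged from -0.36 to 0.058 for AXL 202686_s_at, -1.82 to 0.17 for TYRO3 211432_s_at, -1.24 to 0.18 for 211431_s_at, -0.39 to 0.10 for GAS6 202177_at, -0.17 to 0.36 for MET 211599_x_at, -0.059 to 0.13 for 213807_x_at, -0.035 to 0.59 for 213816_s_at, -1.42 to 0.087 for HGF 210998_s_at, -0.70 to 0.13 for 210997_at, -0.38 to 0.085 for IGF1R 203627_at, -0.32 to 0.046 for FGFR1 210973_s_at, -0.80 to 0.47 for 215404_x_at, -1.20 to 0.46 for 222164_at and -1.24 to 1.06 for 207822_at. Without only the siLuc array of experiment 1 the sign turned for MET 211599_x_at (-0.066), HGF 210998_s_at (0.015) and 210997_at (0.10), and FGFR1 210973_s_at (0.17) and 207822_at (0.72). With array weights the sign also turned for TYRO3 211431_s_at (0.21), MET 211599_x_at (-0.043), 213807_x_at (-0.037) and 213816_s_at (-0.039), FGFR1 210973_s_at (0.093) and 207822_at (0.46). With quantile normalization it turned for MET 213807_x_at (-0.019), HGF 210997_at (0.45), FGFR1 222164_at (0.12) and 207822_at (0.071), and with median centring for HGF 210997_at (0.16), FGFR1 222164_at (0.064) and 207822_at (0.019). Among all probe sets, without the filter, these scalings moved the median log2 fold change from -0.16 to 0.013 and 0.16. Of 120 list medians under an alternative 13 moved by more than the spread between experiments. Medians that turned sign within that spread are not in this count. The FGF axis was at 0.19 with the filter at the 60th percentile. The HGF and MET axis was at -0.035 with array weights and -0.14 without experiment 1. The PI3K and AKT branch was at -0.035 with array weights and -0.061 without the siLuc array of experiment 1. The causes were not tested. Standard errors of the 8 dim member probe sets were 0.58 to 0.94, against 0.16 to 0.76 for the 20 kept ones.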
